A study of Mus musculus with 4 samples.

Results

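The 36 genes described here are 36 protein-coding genes of glycolysis and of the response to low oxygen, chosen by name from a table of 48395 mouse genes, and each was found in it under its symbol. They comprise 15 enzymes of the glycolytic sequence, the lactate dehydrogenases and lactate carriers, the glucose transporters, kinases of the pyruvate dehydrogenase complex, the oxygen sensors with their transcription factor, targets of that factor, and 3 kinases that buffer ATP. RNA was sequenced from 4 libraries of sorted cells of the embryonic ICR mouse cortex. Control cortices had received in utero at E14.5 a plasmid for the green fluorescent protein ZsGreen under the ubiquitous CAG promoter (CAG-IRES-ZsGreen), and the other group received the same plasmid with Zeb1 added (CAG-Zeb1-IRES-ZsGreen). In both groups the fluorescent cells were taken at E16.5, after 48 hours, with 2 libraries per group, and every library therefore comes from electroporated and sorted cells. The labels do not say whether the libraries of a group come from separate litters or from pooled embryos, so the spread between them may be technical.

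Glycolysis splits glucose into pyruvate in a chain of cytosolic reactions that first spends and then returns ATP. Lactate dehydrogenase interconverts pyruvate and lactate, which leaves or enters the cell through monocarboxylate carriers. Under low oxygen the factor HIF1A escapes the prolyl hydroxylases that mark it for destruction and raises many glycolytic genes together with genes for vessel growth and mitophagy. Neural progenitors of the developing cortex are known to rely more on glycolysis, and neurons more on mitochondrial respiration, with characteristic isozymes in each. ZEB1 is a zinc-finger repressor that binds E-boxes of the type CACCTG.

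A promoter comparison was made because HIF1A and ZEB1 recognise short DNA words. RefSeq windows on GRCm38.p6, from 250 bases before to 50 bases after a gene's start, were present for 33 of the 36 genes and not for Bnip3l, Ndrg1 and Slc2a3. The HIF core ACGTG, read on either strand, stood in a window of 23 of these 33 genes (69.7%), against 21.8% of all 27025 genes with a window and 29.7% of the 9165 tested protein-coding genes among them. A gene counted if any of its windows held the word. The 33 genes had 50 windows and the 9165 had 11860, so the members had more windows per gene. ACGTG holds a CpG. The median number of CpG was 21.5 in the 50 windows of the members and 21 in those of the tested protein-coding genes. CACCTG on either strand stood in 7 of the 33 (21.2%), against 20.5% of the tested protein-coding genes. The 7 were Bnip3, Egln1, Hif1a, Hk1, Ldha, Pfkm and Vegfa. The list was chosen by name to include targets of HIF1A, so its share of ACGTG is not independent of that choice. These shares describe letters in a window and not bound sites.

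The windows below were chosen to show the range. Those of Ldha, Pgk1 and Bnip3 hold the HIF core, and those of Ldhb and Eno2 hold neither word. Among the 7 of the 36 genes with the smallest p between Zeb1 and control cells, Bnip3 holds both words in 1 window. Hk1 and Pfkm hold both in different windows, Pkm holds ACGTG alone, and Ldhb, Eno2 and Ckmt1 hold neither. A second Ldha window, not shown, holds the CACCTG counted above. Capitals mark ACGTG or its reverse complement CACGT, and CACCTG. The palindrome CACGTG matches on both strands and counts as 1 site. The Ldha window has 3 sites, beginning 145, 48 and 34 bases before the start. The Pgk1 window has 2, at 150 and 131 bases before it. That of Bnip3 has 1 at 108 bases before the start, and its CACCTG begins at 76. Each is written 5′ to 3′ on the gene's strand.
Ldha, chr7:46845554-46845853, plus strand: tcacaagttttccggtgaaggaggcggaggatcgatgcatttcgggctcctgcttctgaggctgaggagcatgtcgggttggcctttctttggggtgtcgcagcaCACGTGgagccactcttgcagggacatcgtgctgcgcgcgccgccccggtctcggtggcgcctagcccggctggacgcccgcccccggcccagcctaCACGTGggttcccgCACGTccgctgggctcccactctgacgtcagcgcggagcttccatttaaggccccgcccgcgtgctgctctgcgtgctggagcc
Pgk1, chrX:106186850-106187149, plus strand: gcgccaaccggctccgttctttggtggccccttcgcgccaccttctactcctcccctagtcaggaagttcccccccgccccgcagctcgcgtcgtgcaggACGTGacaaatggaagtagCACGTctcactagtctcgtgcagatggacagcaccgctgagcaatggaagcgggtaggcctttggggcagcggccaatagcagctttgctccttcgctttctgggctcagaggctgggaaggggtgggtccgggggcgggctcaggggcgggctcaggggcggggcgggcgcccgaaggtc
Bnip3, chr7:138909457-138909756, minus strand: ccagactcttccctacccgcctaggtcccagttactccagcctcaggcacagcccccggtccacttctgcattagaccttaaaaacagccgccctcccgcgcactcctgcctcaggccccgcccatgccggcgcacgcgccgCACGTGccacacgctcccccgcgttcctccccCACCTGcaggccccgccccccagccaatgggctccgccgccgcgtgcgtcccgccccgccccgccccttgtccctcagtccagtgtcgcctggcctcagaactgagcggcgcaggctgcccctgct
Ldhb, chr6:142507908-142508207, minus strand: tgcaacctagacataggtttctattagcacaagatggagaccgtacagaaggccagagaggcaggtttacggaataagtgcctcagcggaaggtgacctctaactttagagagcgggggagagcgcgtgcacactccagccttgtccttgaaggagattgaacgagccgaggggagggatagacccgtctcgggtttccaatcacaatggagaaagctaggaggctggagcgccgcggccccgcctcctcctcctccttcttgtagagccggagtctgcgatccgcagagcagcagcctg
Eno2, chr6:124769624-124769923, minus strand: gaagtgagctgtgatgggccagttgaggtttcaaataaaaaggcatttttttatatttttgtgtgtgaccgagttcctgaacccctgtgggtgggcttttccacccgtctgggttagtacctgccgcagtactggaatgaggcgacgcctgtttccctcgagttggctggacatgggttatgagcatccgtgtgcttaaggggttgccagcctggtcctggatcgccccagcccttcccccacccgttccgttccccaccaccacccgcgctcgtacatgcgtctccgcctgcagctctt
Ckb, Ckmt1, Eno1, Gpi1, Pdk1, Pfkl, Pfkp and Tpi1 also have no ACGTG in any of their windows, which says only that these letters are not in these stretches.

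Values are FPKM, fragment counts scaled to gene length and to the library's mapped fragments in the usual definition, as the authors deposited them, so the absolute depth is unknown. Relative depth, read from genes shorter than 200 bp, lay between 0.994 and 1.04 of that of control replicate 1, and 13647 to 13997 genes per library reached 1 FPKM. Zeb1 itself had 35.2 and 18.6 FPKM in control against 5622 and 6227 FPKM in Zeb1 libraries. Across the tested protein-coding genes, control replicate 1 had a Spearman correlation of 0.972 with control replicate 2. With Zeb1 replicates 1 and 2 it had 0.9754 and 0.973. The Zeb1 libraries had the highest of any pair, 0.9755. Control replicate 2 had 0.9446 and 0.9608 with Zeb1 replicates 1 and 2. Only control replicate 1 thus stood nearer to the other group, to both of its libraries and by a small margin. Defining markers of cortical cells were present. Summed levels for 15 neuronal genes were 2412 and 2273 FPKM in control against 2327 and 2040 FPKM in Zeb1 libraries. For 15 radial glial genes they were 1098 and 1114 FPKM against 1593 and 1202 FPKM. Both Zeb1 libraries lay below both controls for 6 of 15 neuronal genes (40%) and above for 2 (13.3%). They lay above for 6 of 14 radial glial genes tested (42.9%) and below for 1 (7.14%). For 8 intermediate progenitor genes, 6 (75%) lay above and 1 (12.5%) below. Over all genes tested these shares were 18.2% above and 19.5% below. The radial glial list includes Aldoc, itself among the genes described here, with 84.5 to 137 FPKM. No endothelial marker exceeded 8.39 FPKM. Some lists differed widely between libraries. The 15 microglial markers summed to 550 and 147 FPKM in control against 966 and 521 FPKM in Zeb1 libraries. A list of 14 immediate-early and stress genes, with Junb listed at 0 in all libraries, summed to 594, 394, 2455 and 820 FPKM in the same order. All 13 of these tested and all 14 microglial genes tested had a positive log2 fold change, Zeb1 minus control. Both Zeb1 libraries lay above both controls for 8 of the 13 (61.5%) and 4 of the 14 (28.6%), and below for 0 in each list. The 9 erythroid markers summed to 139 FPKM in Zeb1 replicate 1 and to between 51.6 and 64.7 FPKM elsewhere. The part of these cell type and stress lists in the results that follow was not tested. In such bulk samples, fewer cells of a type and less RNA per cell cannot be told apart.

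All 36 genes reached the mean of 1 FPKM needed for testing, and none passed. In limma, with p-values adjusted over all 14330 genes tested, 0 of the 36 had an adjusted p under 0.05, against 0.195% of all genes, and the smallest adjusted p was 0.233, for Ckmt1. At an unadjusted limma p under 0.05, 7 of the 36 (19.4%) were lower in Zeb1 cells, against 3.68% of all genes tested, and 0 were higher, against 3.23%. The 7 were Ckmt1, Eno2, Pfkm, Ldhb, Bnip3, Hk1 and Pkm. Without Zeb1 replicate 2 this count was 2, and without control replicate 2 it was 3. The groups did not overlap for 14 genes. Both Zeb1 libraries lay below both controls for 10 (27.8%), against 19.5% of all genes tested, and above both for 4 (11.1%), against 18.2%. The median log2 fold change of the 36, Zeb1 minus control on the log2(FPKM + 1) scale, was -0.07, with 22 negative, beside 0.00032 over all genes tested. Without Zeb1 replicate 2 it was 0.04, with 16 negative, and without Zeb1 replicate 1 it was -0.31, with 27 negative, so the sign of the median rests on which Zeb1 library is present.

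**Figure D1:**
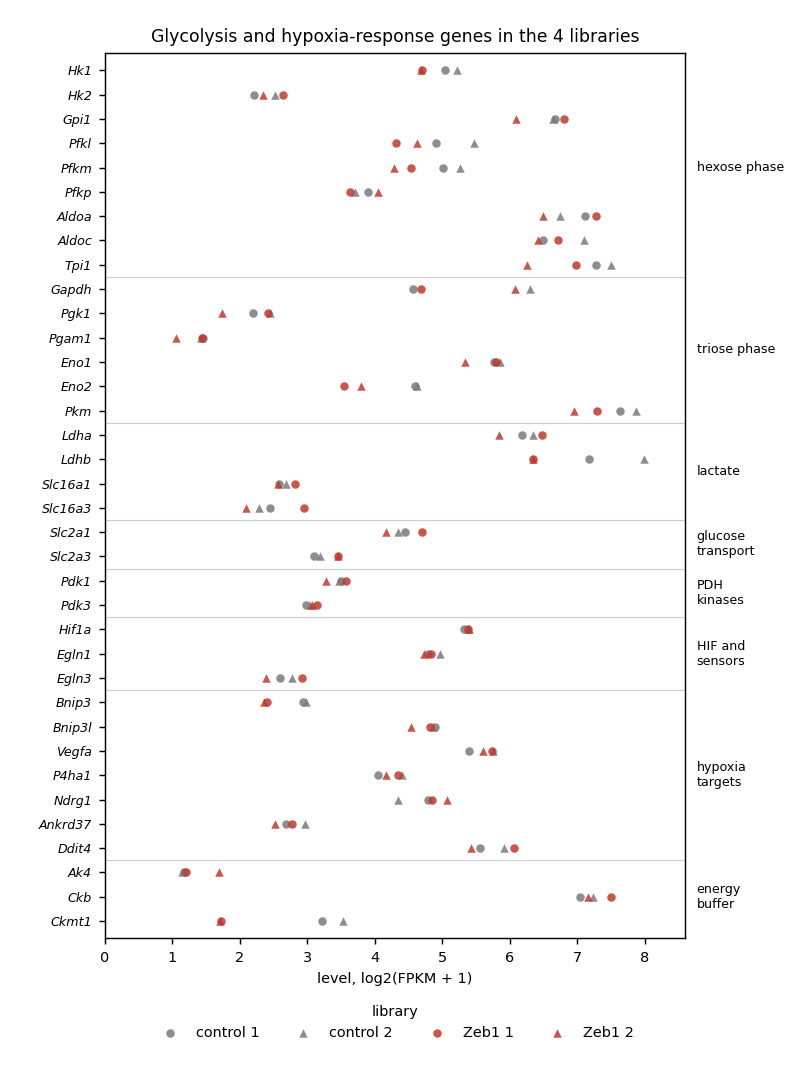
Level of each of the 36 genes, as log2(FPKM + 1), in the 4 libraries, with genes in rows grouped by role. Grey marks are control and red marks Zeb1 libraries, circles are replicate 1 and triangles replicate 2. For Ckmt1, Eno2 and Ldhb the red marks lie together to the left of the grey ones, while for Gapdh the circles and the triangles lie together.

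Control replicate 2 was the highest library for 17 of the 36 genes (47.2%) and Zeb1 replicate 2 the lowest for 22 (61.1%). Over all genes tested these shares were 28.5% and 33.3%. The median absolute difference between replicates was 0.18 log2 units in the controls and 0.30 in the Zeb1 libraries, beside a median absolute log2 fold change of 0.19. For 11 of the 36 (30.6%) the difference between groups was larger than both differences between replicates, and this was so for 25.0% of all genes tested.

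The enzymes of glycolysis proper lay mostly below 0. Of the 15, 13 had a negative log2 fold change, with a median of -0.24, where 7156 of all 14330 genes tested were negative. For 6 (40%), against 19.5% of all genes tested, both Zeb1 libraries lay below both controls, namely Hk1, Pfkl, Pfkm, Tpi1, Eno2 and Pkm. None of the 15 had both above, against 18.2% of all genes tested. Without Zeb1 replicate 2, 10 of the 15 were negative, with a median of -0.17. Without control replicate 1 the median was -0.52, and without Zeb1 replicate 1 it was -0.48.

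Hexokinase traps glucose in the cell as its phosphate. Hk1, the main brain form (chromosome 10, 62268855 to 62379908 of GRCm38), had 32.04 and 36.2 FPKM in control against 24.9 and 24.8 FPKM in Zeb1 libraries. The Zeb1 values nearly coincided and lay below both controls, with a log2 fold change of -0.44 (95% interval -0.82 to -0.05, limma adjusted p = 0.691). Hk2, the inducible form and a HIF target, had 3.64 and 4.77 FPKM in control against 5.24 and 4.07 FPKM in Zeb1 libraries, and the groups overlapped. Gpi1, which isomerises glucose phosphate to fructose phosphate, had 101 and 98.7 FPKM and then 110 and 67.6 FPKM, so the low value was that of Zeb1 replicate 2 alone.

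Phosphofructokinase is the committed and most regulated step. Its muscle-type gene Pfkm (chromosome 15, 98092589 to 98132447) had 31.4 and 37.6 FPKM in control against 22.2 and 18.5 FPKM in Zeb1 libraries, a log2 fold change of -0.73 (95% interval -1.23 to -0.24, limma adjusted p = 0.587). The liver-type gene Pfkl had 29.1 and 43.6 FPKM in control against 18.9 and 23.7 FPKM in Zeb1 libraries, and its log2 fold change of -0.72 had an interval that reached 0. For both genes the groups did not overlap. The platelet-type gene Pfkp had 13.9 and 12.1 FPKM and then 11.4 and 15.6 FPKM, with overlapping groups. Pfkp accordingly made up 18.7% and 12.997% of the summed FPKM of the 3 phosphofructokinase genes in the controls and 21.7% and 27.0% in the Zeb1 libraries. Pitrm1, on the opposite strand, shares 748 of the 13401 exon bases of Pfkp and had 13.7 to 17.3 FPKM. Strand use in the counting is not known, so reads of this overlap cannot be told apart.

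Aldolase cleaves the doubly phosphorylated sugar, and triose phosphate isomerase makes its products equivalent. Aldoa, the general aldolase, had 138 and 106 FPKM in control against 154 and 89.4 FPKM in Zeb1 libraries, so in each group replicate 1 stood above replicate 2. Aldoc, the form of brain and of radial glia and astrocytes, had 89.5 and 137 FPKM and then 105 and 84.5 FPKM. Tpi1 had 155 and 180 FPKM in control against 126 and 75.6 FPKM in Zeb1 libraries. Its groups did not overlap, but its Zeb1 libraries differed by more than its controls did, and the log2 fold change of -0.77 had a 95% interval of -1.61 to 0.07 (limma adjusted p = 0.738).

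Of the enzymes after triose phosphate, enolase and pyruvate kinase stood out. Eno2, the neuron-specific enolase (chromosome 6, 124760053 to 124769673), had 23.1 and 23.8 FPKM in control against 10.6 and 12.8 FPKM in Zeb1 libraries. Control values were on average 1.998 times the Zeb1 values, and each Zeb1 library was well below each control. The log2 fold change was -0.95 with a standard error of 0.16 (limma adjusted p = 0.394), and with any 1 library left out it stayed between -1.07 and -0.82. Eno1, the general enolase, had 53.6 and 56.9 FPKM and then 54.5 and 39.3 FPKM, so Zeb1 replicate 1 matched the controls. As a share of both enolase genes, Eno2 made up 30.1% and 29.5% in the controls and 16.3% and 24.6% in the Zeb1 libraries. Pkm, the pyruvate kinase gene of brain and muscle (chromosome 9, 59656368 to 59679375), had the highest mean level of the glycolytic enzymes, with 198 and 234 FPKM in control against 156 and 123 FPKM in Zeb1 libraries. Its groups did not overlap, and the log2 fold change was -0.63 (95% interval -1.19 to -0.07, limma adjusted p = 0.691). FPKM per gene do not separate its spliced forms.

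Pgk1 and Pgam1, which encode phosphoglycerate kinase and mutase, were listed at low levels for enzymes of this chain. Pgk1 had 3.59, 4.46, 4.37 and 2.35 FPKM and Pgam1 had 1.74, 1.69, 1.72 and 1.09 FPKM in control replicates 1 and 2 and Zeb1 replicates 1 and 2. For both, Zeb1 replicate 2 was the lowest library and the groups overlapped.

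**Figure D2:**
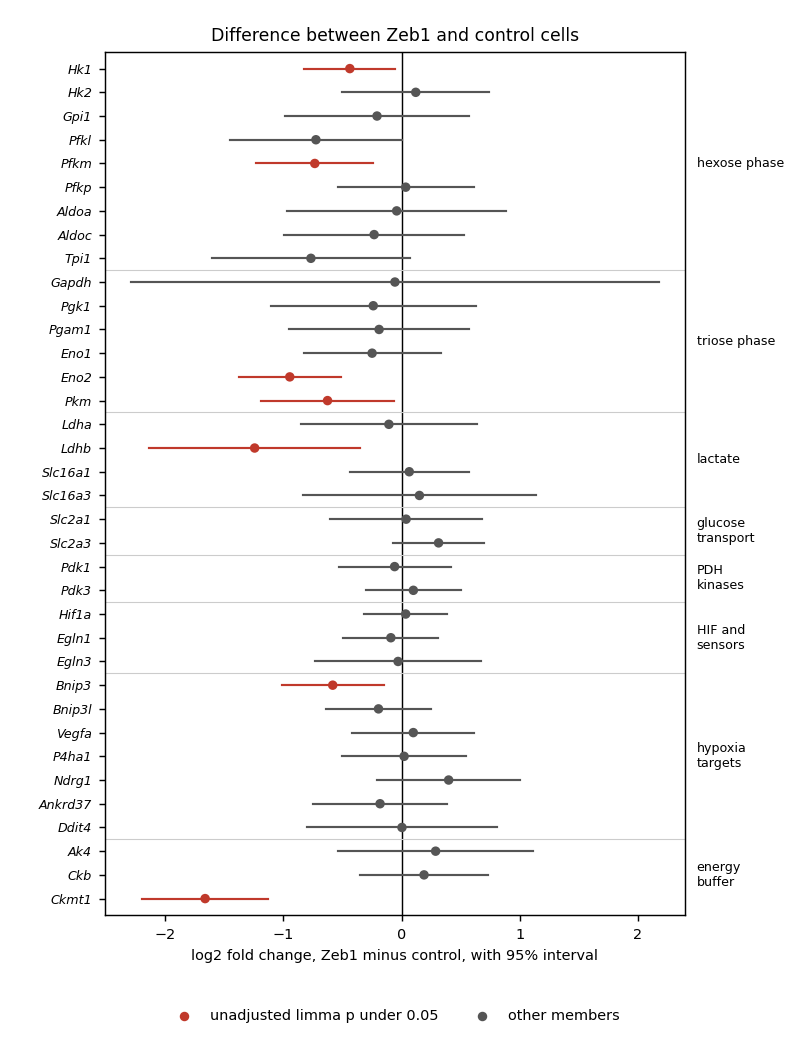
Log2 fold change of each gene, Zeb1 minus control on the log2(FPKM + 1) scale, with its 95% interval from limma, in rows grouped by role. The 7 genes in red have an unadjusted limma p under 0.05 and all lie to the left of 0. The widest interval is that of Gapdh, from -2.29 to 2.18.

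Gapdh, the glyceraldehyde phosphate dehydrogenase gene often used as a reference (chromosome 6, 125161715 to 125166467), followed the replicate number and not the plasmid. It had 22.7 FPKM in control replicate 1 and 24.7 FPKM in Zeb1 replicate 1, but 77.9 and 66.5 FPKM in the libraries of replicate 2. Replicate 2 was 3.43 times replicate 1 in the controls and 2.70 times in the Zeb1 libraries. The difference between groups was -0.06 on the log2 scale with a standard error of 0.80. A search of the GENCODE transcripts found 88 other genes of the table that match a Gapdh transcript at 95% identity or more over at least 200 bases, and 84 of them had a value above 0. Together these copies had 92.2 and 171 FPKM in control against 95.1 and 125 FPKM in Zeb1 libraries, which was 80.2%, 68.6%, 79.4% and 65.3% of the sum of Gapdh and its copies. A single processed pseudogene, Gm13394 on chromosome 2, matches at 99.9% over 1000 bases and alone had 69.0, 75.1, 71.3 and 59.1 FPKM. It thus stood above Gapdh itself in both replicate 1 libraries and did not show the replicate pattern. The other 87 copies summed to 23.3, 95.4, 23.8 and 66.3 FPKM, with the same split by replicate number as Gapdh. Reads of near-identical copies cannot be assigned with certainty, so the level of Gapdh is uncertain. Whether this assignment gives the replicate pattern was not tested.

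**Figure D3:**
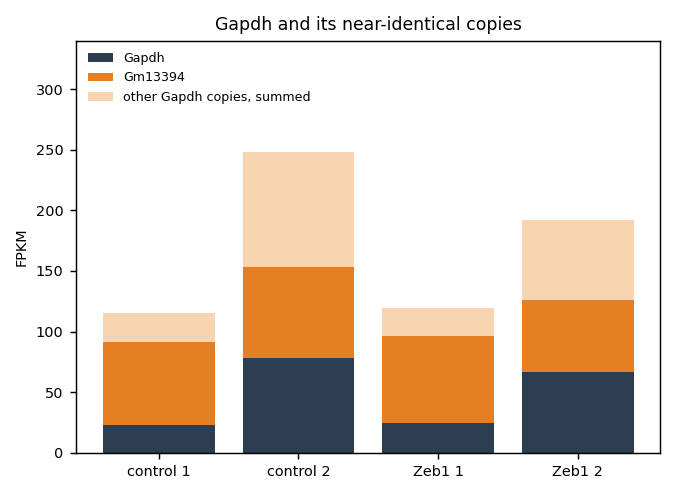
FPKM of Gapdh, of the pseudogene Gm13394 and of the other near-identical copies, stacked for each of the 4 libraries. The replicate 2 bars reach 249 FPKM (control) and 192 FPKM (Zeb1) and those of replicate 1 reach 115 and 120 FPKM, while the Gm13394 part is 59.1 to 75.1 FPKM in each.

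In all, 13 of the 36 genes have such a copy in the table. The pseudogene Gm5514, which matches Ldhb at 98.0% over 1002 bases, had 20.2 and 35.9 FPKM in control against 16.1 and 10.4 FPKM in Zeb1 libraries. Gm12892, a Ckb pseudogene, had 14.1 to 19.0 FPKM, and Eno1b, which matches Eno1 at 99.5%, had 3.78 to 6.21 FPKM. For Pgk1 and Pgam1 the copies that the search found were listed at 0. They match at 100%, over 1252 and 1255 bases for Pgk1 and 765 bases for Pgam1. Reads of such stretches cannot be assigned with certainty, so the low levels of Pgk1 and Pgam1 are uncertain as well. Whether the assignment gives these low levels was not tested.

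Over the whole list, both replicate 1 libraries lay above both replicate 2 libraries for 6 of the 36 genes (16.7%), against 24.1% of all genes tested. These were Gpi1, Aldoa, Pgam1, Slc16a3, Slc2a1 and Pdk1. Both replicate 2 libraries lay above both of replicate 1 for 2 (5.56%), against 11.6%, namely Gapdh and Hif1a. The difference of Hif1a between replicates was 0.07 log2 units in the controls and 0.01 in the Zeb1 libraries. Among the 36 genes the shift of Gapdh, 1.74 log2 units in the controls and 1.40 in the Zeb1 libraries, was the largest in each group.

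**Figure D4:**
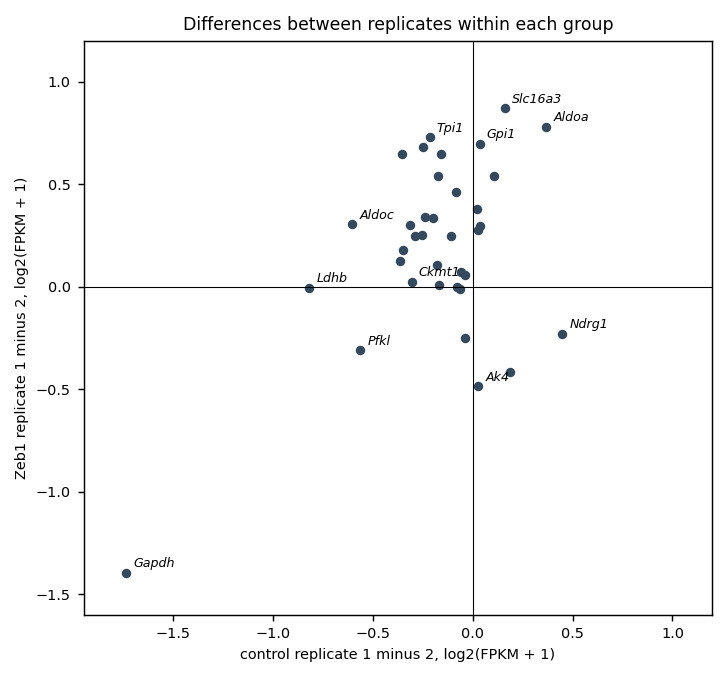
Each point is 1 of the 36 genes, with the difference between replicates 1 and 2 in the controls on the horizontal and in the Zeb1 libraries on the vertical axis, both in log2(FPKM + 1). Gapdh stands alone at the lower left, and most other genes have a positive Zeb1 difference.

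Lactate dehydrogenase is a tetramer of LDHA and LDHB subunits. LDHA-rich enzyme favours making lactate, and LDHB-rich enzyme favours its oxidation. Ldhb (chromosome 6, 142490249 to 142507957) had 144 and 254 FPKM in control against 80.0 and 80.4 FPKM in Zeb1 libraries. The Zeb1 values nearly coincided, while the controls were far apart, with replicate 2 at 1.77 times replicate 1. Both controls stood above both Zeb1 libraries, with a log2 fold change of -1.24 and a standard error of 0.32 (95% interval -2.13 to -0.35, limma adjusted p = 0.605). Without control replicate 2 the log2 fold change was -0.83. Ldha had 71.9 and 80.4 FPKM in control against 88.5 and 56.2 FPKM in Zeb1 libraries, so its groups overlapped. As a share of both genes, Ldhb made up 66.6% and 76.0% in the controls and 47.5% and 58.9% in the Zeb1 libraries. A single scaling factor per library cannot alter this ratio. The copy Gm5514 held 11.5% to 16.7% of the sum of Ldhb and that copy, and its part in these shares was not tested. No p is given for such shares, because the smallest that an exact permutation of 2 and 2 libraries allows is 0.333.

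The lactate carriers had low levels. Slc16a1, the general monocarboxylate carrier, had 4.97 and 5.45 FPKM in control against 6.07 and 4.96 FPKM in Zeb1 libraries. Slc16a3, a lactate exporter and HIF target, had 4.47 and 3.90 FPKM and then 6.77 and 3.25 FPKM, with the highest and the lowest value both in Zeb1 cells.

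**Figure D5:**
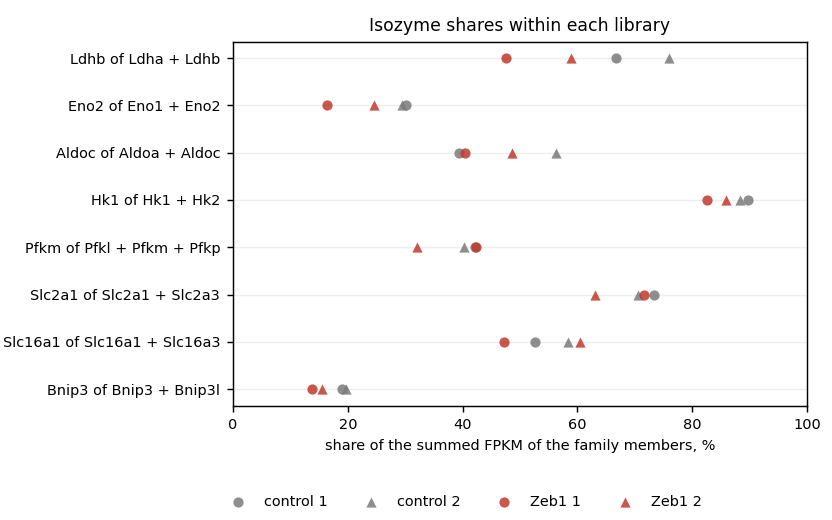
Share of the summed FPKM of related genes that is taken by the gene named first, in percent, in each of the 4 libraries. For Ldhb, Eno2, Hk1 and Bnip3 both Zeb1 libraries (red) lie to the left of both controls (grey), and for Aldoc, Slc16a1 and Pfkm the groups overlap.

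Glucose enters through facilitative transporters. Slc2a3, the neuronal glucose transporter GLUT3, had 7.59 and 8.08 FPKM in control against 9.97 and 9.97 FPKM in Zeb1 libraries, so both Zeb1 libraries were above both controls. The log2 fold change was 0.31 (95% interval -0.07 to 0.70, limma adjusted p = 0.755). Slc2a1, the GLUT1 transporter of the blood-brain barrier and of glia, had 20.9 and 19.3 FPKM in control against 25.1 and 17.0 FPKM in Zeb1 libraries, so the groups overlapped. Kinases of pyruvate dehydrogenase, which restrain the entry of pyruvate into the citric acid cycle, had narrow ranges. Pdk1, a HIF target, had 8.71 to 10.9 FPKM and Pdk3 had 6.92 to 7.87 FPKM. Their 95% intervals were -0.53 to 0.41 and -0.30 to 0.50 on the log2 scale.

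Among the oxygen sensors and HIF1A itself the groups overlapped for every gene. Hif1a, the oxygen-regulated subunit itself, had 39.0 and 40.8 FPKM in control against 40.7 and 41.1 FPKM in Zeb1 libraries, its log2 difference of 0.04 having a 95% interval of -0.32 to 0.39, which was the narrowest of the list. HIF1A is controlled mainly by protein stability, which RNA does not show. The prolyl hydroxylase genes Egln1, with 25.6 to 30.2 FPKM, and Egln3, with 4.22 to 6.59 FPKM, had overlapping groups. Of the 7 hypoxia targets, the groups overlapped for Vegfa, P4ha1, Ankrd37 and Ddit4. Vegfa, the vessel growth factor, had 41.0 and 53.1 FPKM in control against 52.3 and 47.9 FPKM in Zeb1 libraries. Collagen prolyl hydroxylase P4ha1 ran from 15.6 to 20.2 FPKM, the ankyrin-repeat gene Ankrd37 from 4.75 to 6.86 FPKM, and Ddit4, an mTORC1 inhibitor also induced by other stresses, from 42.0 to 66.2 FPKM. Ddit4 was highest in Zeb1 replicate 1, the library in which the immediate-early and stress list summed to 2455 FPKM, and the part of that in its value was not tested. Ndrg1 had 26.6 and 19.2 FPKM in control against 27.8 and 32.7 FPKM in Zeb1 libraries, with non-overlapping groups, a log2 difference of 0.40 and a 95% interval of -0.21 to 1.005.

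Bnip3, a mitophagy receptor and HIF target (chromosome 7, 138890836 to 138909519), had the smallest p of the hypoxia targets. It had 6.69 and 6.91 FPKM in control against 4.32 and 4.11 FPKM in Zeb1 libraries. Replicates lay close together in each group, and the log2 fold change was -0.58 (95% interval -1.01 to -0.15, limma adjusted p = 0.606), between -0.61 and -0.55 with any 1 library left out. An antisense gene, RP24-285L8.3, shares 504 of the 2265 exon bases of Bnip3 and had 15.2 and 16.1 FPKM in control against 10.6 and 5.90 FPKM in Zeb1 libraries. Whether the counting used strand is not given in the sources used here, so reads of the overlap cannot be told apart. Its relative Bnip3l, also a mitophagy receptor, had 28.6 and 28.1 FPKM and then 27.2 and 22.3 FPKM, so its Zeb1 libraries also lay below both controls, the nearer by a small margin (log2 fold change -0.19, limma adjusted p = 0.777). Of Ndrg1, 419 exon bases overlap the antisense gene Gm17035, which had 7.50 to 16.0 FPKM.

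Kinases that buffer ATP gave the smallest p of the list. Ckmt1, the ubiquitous mitochondrial creatine kinase (chromosome 2, 121357714 to 121363737), had 8.34 and 10.6 FPKM in control against 2.31 and 2.26 FPKM in Zeb1 libraries. The control mean was 4.14 times the Zeb1 mean, and no control value came near a Zeb1 value. The log2 fold change was -1.66 with a standard error of 0.19 (95% interval -2.20 to -1.13), and the limma adjusted p was 0.233 over all genes and 0.119 over protein-coding genes alone. With any 1 library left out the log2 fold change lay between -1.81 and -1.51. Ckb, the cytosolic brain creatine kinase that shares this phosphocreatine circuit, had 130 and 150 FPKM in control against 179 and 142 FPKM in Zeb1 libraries, so its groups overlapped. Ak4, a mitochondrial adenylate kinase induced by hypoxia, had 1.26 and 1.21 FPKM and then 1.31 and 2.23 FPKM, with the higher value from Zeb1 replicate 2 alone.

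Other genes of the same pathways were read from the same fit. Of 15 further glycolysis genes tested, 0 passed in limma in either direction, and 0 had an unadjusted p under 0.05, and their median log2 fold change was -0.01. Hk3, a hexokinase of myeloid cells, had 2.38, 1.27, 7.50 and 2.97 FPKM in control replicates 1 and 2 and Zeb1 replicates 1 and 2, beside the microglial sums of 550, 147, 966 and 521 FPKM. The phosphoglucomutase gene Pgm2 and the muscle-type mutase gene Pgam2 had log2 fold changes of -0.55 and -0.47, each with a limma adjusted p of 0.764.

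Among 8 further transporter genes tested, 0 passed in limma, while an unadjusted p under 0.05 was reached by 1 in the higher and 0 in the lower direction. That gene, Slc2a13, encodes a proton-coupled myo-inositol transporter of the glucose transporter family. It had 1.73 and 1.77 FPKM in control against 6.17 and 5.98 FPKM in Zeb1 libraries, close within each group and far apart between them, with a log2 fold change of 1.36 (95% interval 0.87 to 1.86, limma adjusted p = 0.278). Slc2a5, the fructose transporter found in microglia, had 2.72, 0.523, 3.19 and 3.33 FPKM in that order of libraries, with the lowest value in control replicate 2, where the microglial markers also summed lowest. Slc2a8 had 17.4 and 12.7 FPKM in control against 17.7 and 17.6 FPKM in Zeb1 libraries, and Slc2a6 had 1.17 and 0.509 FPKM and then 1.46 and 1.27 FPKM.

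At the entry to mitochondria, 0 of 11 genes passed in limma, while an unadjusted p under 0.05 was reached by 0 in the higher and 1 in the lower direction. Pdk2, a brain pyruvate dehydrogenase kinase, had 36.7 and 46.4 FPKM in control against 25.4 and 28.1 FPKM in Zeb1 libraries, a log2 fold change of -0.61 (limma adjusted p = 0.643). The phosphatase gene Pdp1, which reactivates the complex, the subunit gene Pdha1 and the pyruvate carboxylase gene Pcx had log2 fold changes of 0.29, 0.30 and 0.28. For these 3 genes both Zeb1 libraries lay above both controls.

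The citric acid cycle list lay mostly below 0. Besides enzymes of the cycle it holds malic enzymes, aspartate aminotransferases and cytosolic forms of cycle enzymes, so its counts are not those of the cycle alone. Of its 25 tested genes, 21 had a negative log2 fold change, the median was -0.21, and 13 (52%) had both Zeb1 libraries below both controls, against 19.5% of all genes tested, with 0 above. In limma 0 passed, while an unadjusted p under 0.05 was reached by 0 in the higher and 2 in the lower direction. Got1, the cytosolic aspartate aminotransferase of the malate-aspartate shuttle, had 29.9 and 34.3 FPKM in control against 23.1 and 21.7 FPKM in Zeb1 libraries (log2 fold change -0.50, limma adjusted p = 0.644). Ogdhl, a brain form of a cycle dehydrogenase, had 8.28 and 10.6 FPKM and then 5.58 and 6.64 FPKM. The succinate dehydrogenase gene Sdhb had 75.2 and 89.4 FPKM in control against 67.2 and 61.6 FPKM in Zeb1 libraries. Mdh1, the gene of the cytosolic malate dehydrogenase, had 125 and 126 FPKM and then 109 and 80.2 FPKM. With 1 library left out, 18 to 25 of the 25 were negative and the median lay between -0.33 and -0.12.

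Of 10 pentose phosphate genes, 0 passed in limma, while an unadjusted p under 0.05 was reached by 1 in the higher and 0 in the lower direction. Prps2, a synthetase of the ribose donor for nucleotides, had 2.9997 and 2.73 FPKM in control against 6.29 and 4.64 FPKM in Zeb1 libraries (log2 fold change 0.73, limma adjusted p = 0.651). Taldo1, Rpia and G6pdx, enzymes of the pathway, had log2 fold changes of -0.42, -0.25 and -0.10. Of 14 regulators of HIF, 0 passed in limma, while an unadjusted p under 0.05 was reached by 0 in the higher and 1 in the lower direction. Cul2, the cullin of the VHL ubiquitin ligase, had 34.5 and 41.2 FPKM in control against 21.3 and 26.9 FPKM in Zeb1 libraries. Arnt, the constitutive HIF partner, had 22.6 and 17.9 FPKM and then 25.6 and 30.5 FPKM, the ubiquitin ligase gene Siah2 differed by 0.20 log2 units, and the coactivator gene Ep300 by 0.31.

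Of 39 further hypoxia targets, 0 passed in limma, while an unadjusted p under 0.05 was reached by 0 in the higher and 2 in the lower direction, with 20 positive and a median of 0.0047. The transferrin receptor gene Tfrc had 18.9 and 20.1 FPKM in control against 12.8 and 11.2 FPKM in Zeb1 libraries, and stanniocalcin gene Stc2 had 3.66 and 4.44 FPKM and then 1.64 and 1.55 FPKM, each with a limma adjusted p of 0.561. The chemokine receptor gene Cxcr4 had 7.07 and 4.58 FPKM in control against 14.1 and 8.72 FPKM in Zeb1 libraries, and the cytokine gene Mif had 39.6 and 62.0 FPKM and then 33.4 and 28.5 FPKM. Of 6 further kinases and creatine enzymes, 0 passed in limma, and 0 had an unadjusted p under 0.05. The cytosolic adenylate kinase gene Ak1 had 24.5 and 18.002 FPKM in control against 14.9 and 12.2 FPKM in Zeb1 libraries. Gatm, which makes the precursor of creatine, had 15.4, 5.82, 28.0 and 17.9 FPKM, with the lowest value in control replicate 2, where the microglial sum was also lowest. Gamt, which completes creatine synthesis, had 11.1 and 7.86 FPKM in control against 13.25 and 9.23 FPKM in Zeb1 libraries, and its groups overlapped.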

How the data were processed

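RNA of 4 libraries was analysed from a table of FPKM per gene and library, as deposited by the authors, with 1 emptied line. The tools named, per the submitters' processing notes, are STAR, DESeq2 and Cufflinks and the build is GRCm38. Versions, roles and strand use are not given in the sources used here. Because FPKM are not counts, no count model was fitted here. Gene starts were raised by 1, since 43309 of 47930 loci matched to GENCODE then agreed. The Zeb1 and control libraries were compared in limma 3.58.1 (R 4.3.3) on log2(FPKM + 1), over the 14330 genes whose mean reached 1 FPKM, with an intensity trend, two-sided, with Benjamini-Hochberg adjustment over all genes and a threshold of 0.05. The steps were tested on simulated data. Copies were GENCODE transcripts of other genes matching at 95% identity or more over at least 200 bases in BLAST+ 2.17.0, and figures drawn with matplotlib 3.10.9. The members and lists were chosen with earlier results of these data known. The rule for named genes was all 36 members, up to 4 genes of each pathway list by smallest p, Zeb1, overlapping genes, and copies marked by name. Of the overlapping genes and the copies marked by name, only some are named here. The copies named from the sequence search were chosen after their values were seen. Of the pathway genes under this rule, 2 are not reported here. Elob and Eloc were not found under these symbols. Alternatives were other pseudocounts, filters, scalings and variance models, protein-coding genes alone, a replicate block, and each library left out. Intervals are 95% intervals from limma.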

Additional observations from a re-analysis of the deposited data

How the results depend on the processing

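With 2 libraries per group and unknown depth, only large differences can pass the test, and in limma 0 of the 36 genes were called in either direction in all 15 alternatives. At an unadjusted p under 0.05 the number of lower members ran from 2 to 9. Over all genes, 12 were called higher and 16 lower. These counts were 1 and 0 without a filter and 3 and 0 over protein-coding genes alone. With a mean of at least 5 FPKM 10 were lower, and with robust moderation 20 were higher. With any library left out they ranged from 0 to 0 in each direction. Such a fit leaves a group with 1 library, which is assumed to vary like the other group. The libraries share only a replicate number, and the correlation of replicate differences between the groups was 0.368. With the replicate block 5 genes were called higher and 6 lower, with 0 members among them, and the smallest adjusted p of a member was 0.4256. With 1 library left out, the members' median log2 fold change ranged from -0.3123 to 0.03701. Members with Zeb1 libraries above all controls then numbered 4 to 15, and those below 11 to 25. Groups of 1 and 2 libraries separate more easily than groups of 2 and 2. These counts therefore cannot be set against the shares given for all 4 libraries. Shares over all genes tested were not computed for these fits. The sign of the log2 fold change turned in at least 1 alternative for 17 members, in 26 of 535 combinations of member and alternative. Their leave-one-out ranges were Hk2 -0.03615 to 0.2766, Gpi1 -0.557 to 0.1416, Pfkp -0.1739 to 0.2443, Aldoa -0.4313 to 0.3488, Aldoc -0.534 to 0.06975, Gapdh -0.9237 to 0.8118, Pgk1 -0.5808 to 0.1019, Pgam1 -0.3804 to 0.0002629, Ldha -0.4302 to 0.2158, Slc16a1 -0.05857 to 0.189, Slc16a3 -0.2836 to 0.5861, Slc2a1 -0.231 to 0.3081, Pdk1 -0.2067 to 0.08909, Egln3 -0.3002 to 0.2412, Vegfa -0.0842 to 0.2828, P4ha1 -0.1543 to 0.1977 and Ddit4 -0.3192 to 0.3261. Quantile normalization gave -0.02759 for Slc16a1. In these cases the cause was not tested beyond the smaller number of libraries. With ACGTG or GCGTG counted, 84.85% of members and 69.0% of the tested protein-coding genes had a HIF word, a smaller gap than the 69.7% against 29.7% for ACGTG alone. Counting the longer words GACGTG or TACGTG gave 54.5% of members and 15.1% of the tested protein-coding genes. With CACCT the shares were 75.76% and 54.1%.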
